A study of Mus musculus with 6 samples.

Results

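The genes described here are the collagens and the enzymes that modify and assemble them, measured in epithelial cells sorted from mouse lungs. Members were the rows of the deposited gene count table whose Entrez identifier maps to a collagen alpha-chain symbol (Col, a number, a, a number), together with the lysyl oxidases Lox and Loxl1 to Loxl4, the prolyl 3-hydroxylase family P3h1 to P3h4, the prolyl 4-hydroxylase subunits P4ha1 to P4ha3, the lysyl hydroxylases Plod1 to Plod3 and the collagen chaperone Serpinh1. This gave 60 genes of 27179 in the table, made up of 11 chains of fibrillar collagens, 9 chains of network collagens, 24 chains of other collagens and 16 enzymes. The enzyme class here includes the chaperone Serpinh1 and P3h4, a family member without hydroxylase activity. The rule uses names and no measured value, but it was set with earlier results of these data known.

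Collagens are trimeric proteins in which alpha chains wind into a triple helix. Fibrillar collagens assemble into the fibrils of connective tissue, network collagens into sheets such as that of the basement membrane, and the remaining types coat fibrils, anchor basement membranes or span the cell surface. In the endoplasmic reticulum, prolyl and lysyl hydroxylases modify the chains and the chaperone encoded by Serpinh1 binds the folded helix. After secretion, lysyl oxidases start the cross-links that stiffen the matrix. In the lung, mesenchymal cells make most interstitial collagen, while epithelium rests on a basement membrane rich in type IV collagen.

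All 6 samples were EpCAM-positive cells taken by flow sorting from lungs of E16.5 mouse embryos. Grhl2_cKO samples (Shh-Cre;Grhl2 f/-; n = 3, replicates 1, 5 and 10) carried 1 floxed and 1 null Grhl2 allele, and control samples (Shh-Cre;Grhl2 f/+; n = 3, replicates 1, 3 and 7) carried 1 floxed and 1 intact allele. Both genotypes carried Shh-Cre, a recombinase driven from the Sonic hedgehog gene, which is active in lung epithelium. Recombined control cells therefore retain 1 copy of Grhl2, the gene of an epithelial transcription factor. Of the 3 samples per genotype, 2 were male and 1 was female. Whether a sample is 1 embryo is not said in the labels, and the p-values then cover only the spread from sample to sample.

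Libraries held 13472216 to 17228762 counts. Levels are given as CPM, a gene's count relative to the TMM-scaled total of its library. Levels of different members are ranked per kb of the gene length in the table. Summed CPM of a class or a marker list is not corrected for length. The targeted gene, Grhl2, had 105, 109 and 115 CPM in Grhl2_cKO replicates 1, 5 and 10, against 149, 148 and 146 CPM in control replicates 1, 3 and 7 (edgeR adjusted p = 0.0026). Which exons were floxed is not in the labels, and a gene's count sums all of its exons. Grhl2_cKO replicate 1 stood apart in heart muscle genes, whose 7 markers summed to 221 CPM there and to 19.1 to 42.7 CPM elsewhere. Summed CPM of 8 epithelial markers was 17025 to 20174 in Grhl2_cKO and 17563 to 18884 in control, and 1 of the 8, Epcam, the gene of the protein used in the sort, fell (log2 fold change -0.56 ± 0.08 SE, edgeR adjusted p = 0.00412).

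Most of the members that changed were higher in Grhl2_cKO samples, and the single largest change in the set was a fall. Of the 60 members, 57 had counts high enough to be tested, and Loxl4, Col17a1 and Col19a1 did not. In the edgeR quasi-likelihood test with Benjamini-Hochberg adjustment over all 14842 genes tested, 12 members rose and 1 member, P3h2, fell at an adjusted p under 0.05. The 12 risers were 21.1% of the tested members, where 1.23% of all genes tested rose, and the single faller was 1.75%, where 2.39% of all genes tested fell. In either direction 22.8% of tested members passed, against 3.62% of all genes tested. These shares are set side by side as a description.

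Members whose groups did not overlap were also mostly higher in Grhl2_cKO. All 3 Grhl2_cKO samples lay above all 3 control samples for 18 tested members, which is 31.6%, where 8.17% of all genes tested did so. They lay below for 2 members, P3h2 and Col10a1, which is 3.51%, where 9.89% of all genes tested did so. The log2 fold change was above 0 in 43 of 57 members with a median of 0.15, and in 48.5% of all genes tested with a median of 0. In each library the 60 members together took 1.2% to 1.36% of the counts.

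The classes differed in how many members moved. Of 11 fibrillar chains, 3 rose and none fell, and the median log2 fold change was 0.31. Of 9 network chains, 1 rose and none fell, with a median of 0.24. Of the 22 other chains tested, 2 rose and none fell, with 11 values on each side of a median of 0. Of 15 enzymes tested, 6 rose and 1 fell, with a median of 0.24. Of all genes tested, 1.23% rose and 2.39% fell. Differences between the classes were not tested.

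**Figure D1:**
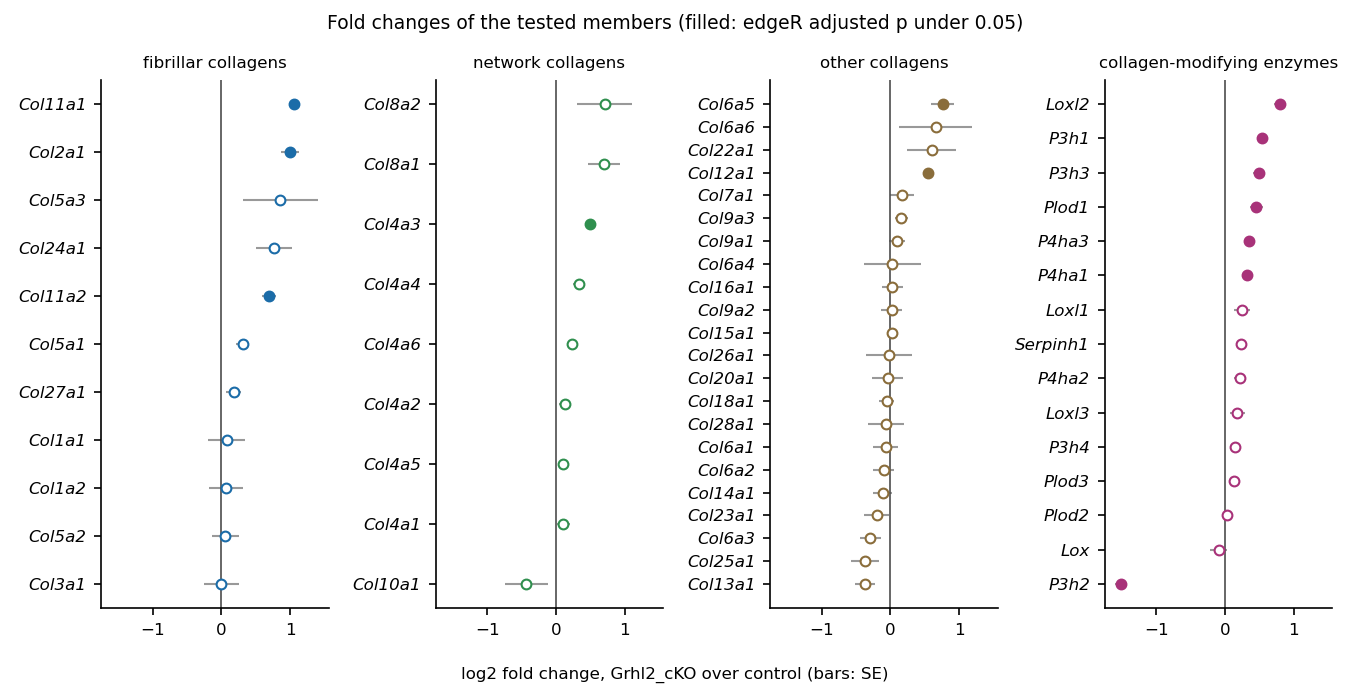
Log2 fold change of Grhl2_cKO over control (horizontal axis) with its standard error for the 57 tested members, 1 panel per class. Filled points are the 13 members with an edgeR adjusted p under 0.05; of these only P3h2, at -1.51, lies left of 0.

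Levels per kb showed which chains these sorted samples held most of. Averaged over all 6 libraries, Col18a1 was highest at 541 CPM per kb, followed by Serpinh1 at 441, Col4a1 at 295, Col4a2 at 154 and Col15a1 at 109.7 CPM per kb. Col4a1 and Col4a2 encode the chains of the common basement membrane network, and Col18a1 and Col15a1 encode the multiplexin collagens that sit in and beneath basement membranes. The highest fibrillar chain, Col3a1, stood at 77.9 CPM per kb. Of the class sum per kb, Col4a1 made up 50.9% of the network class and Col18a1 64.4% of the other collagens. The chaperone gene Serpinh1 made up 60% of the enzyme class, and Col3a1 19.7% of the fibrillar class. None of these most abundant members passed the test. The samples also held RNA of other cell types, with 8 endothelial markers summing to 195 to 209 CPM in Grhl2_cKO and 151 to 224 CPM in control. The part of such cells in these levels was not tested. At the low end, Col19a1, a chain of a fibril-associated collagen, had 2 to 4 counts in Grhl2_cKO libraries and 0 to 4 in control libraries.

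**Figure D2:**
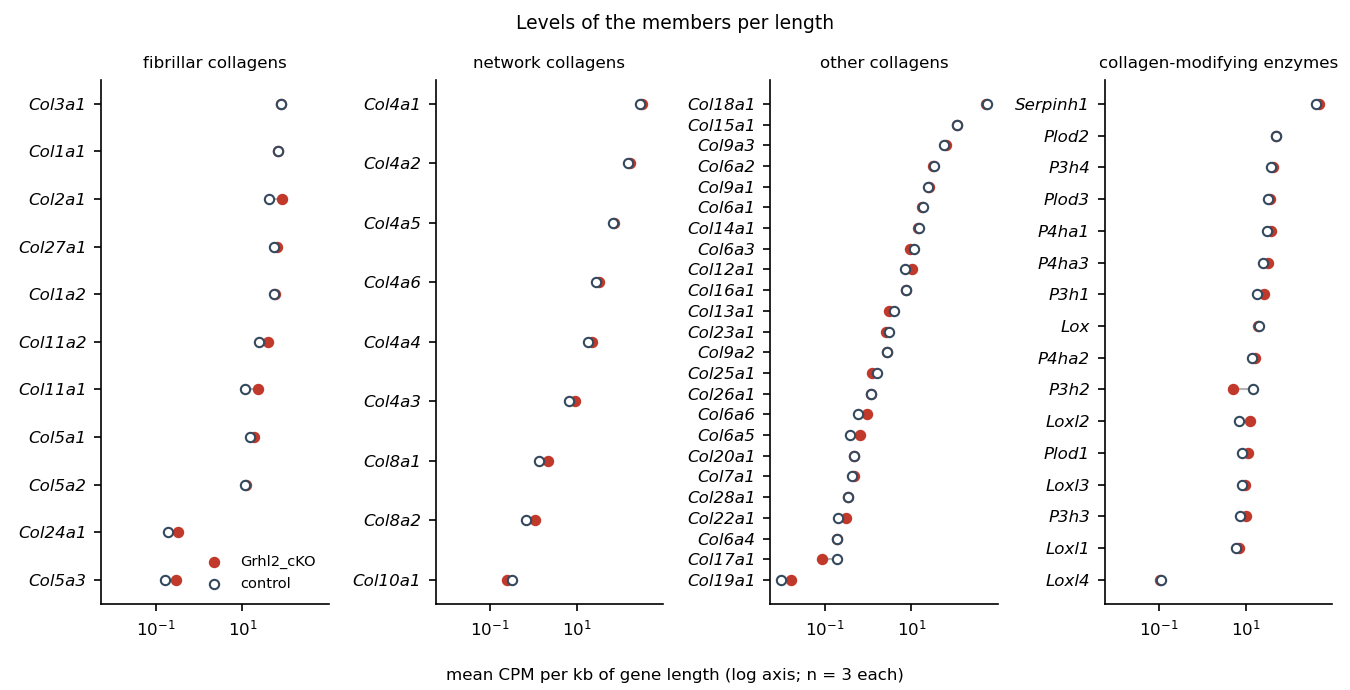
Mean CPM per kb of gene length on a log axis for all 60 members by class, Grhl2_cKO as filled and control as open points (n = 3 each). The most abundant members, such as Col18a1, Serpinh1 and Col4a1, have nearly overlapping points, and P3h2 and Col11a1 show wide gaps in opposite directions.

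Among fibrillar chains, the genes of collagens II and XI rose together. These collagens are best known from cartilage, where collagen XI nucleates thin fibrils of collagen II. Col11a1 (Entrez 12814, chromosome 3, 114030479 to 114220756, mm10), encoding a chain of collagen XI, had 155, 174 and 179 CPM in Grhl2_cKO replicates 1, 5 and 10, against 75, 86 and 83.4 CPM in control replicates 1, 3 and 7. The lowest Grhl2_cKO sample was well above the highest control sample. The mean was 169 ± 12.9 CPM in Grhl2_cKO and 81.4 ± 5.76 CPM in control (SD, n = 3 each), a 2.08-fold difference with a log2 fold change of 1.06 ± 0.08 (SE, edgeR adjusted p = 6.72e-05).

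Col2a1 (Entrez 12824, chromosome 15, 97975602 to 98004724), the single chain gene of collagen II, had 343, 419 and 494 CPM in Grhl2_cKO replicates 1, 5 and 10, against 193, 192 and 241 CPM in control replicates 1, 3 and 7. Its groups did not overlap, and the spread was wider than for Col11a1 (SD 75.6 CPM in Grhl2_cKO and 27.9 CPM in control). The log2 fold change was 1.00 ± 0.13 (edgeR adjusted p = 0.00246). Col11a2, a second chain of collagen XI, had 197, 225 and 242 CPM in Grhl2_cKO samples, against 121, 138 and 154 CPM in control samples, again without overlap. It rose 1.61-fold (0.69 ± 0.10 on the log2 scale, edgeR adjusted p = 0.00391).

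All 3 chains stayed past the threshold with each library left out in turn. The ratio of Col11a1 to Col11a2 per kb was 0.591 in Grhl2_cKO and 0.458 in control, and the 3 values of the log2 ratio, -0.72 to -0.81 in Grhl2_cKO and -1.05 to -1.26 in control, did not overlap. Col2a1 stood at 3.47 times Col11a1 per kb in Grhl2_cKO and 3.62 times in control, and those log2 ratios overlapped. These ratios were chosen after the values were seen and were not tested.

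Markers of cartilage were looked at beside these chains, since cartilage of the airway makes the same collagens. The summed CPM of 8 cartilage markers was 407 to 447 in Grhl2_cKO and 303 to 362 in control. Most of it was Matn4, at 376, 379 and 406 CPM in Grhl2_cKO samples, against 336, 282 and 331 CPM in control samples. Matn4 did not pass the test (log2 fold change 0.29 ± 0.08, edgeR adjusted p = 0.0719). Of the 8, Cnmd rose (log2 fold change 0.71 ± 0.15, edgeR adjusted p = 0.0255) and Comp rose at a level under 2 CPM in each library (1.74 ± 0.41, edgeR adjusted p = 0.0489). Comp lost its call in each of the 5 refits that left out Grhl2_cKO replicate 5 or 10 or any control replicate (adjusted p 0.059 to 0.181), and also with no filter on low counts (0.0623), in DESeq2 (0.0704) and in limma-voom (0.0616). Cnmd lost its call without Grhl2_cKO replicate 10 (0.0661), control replicate 3 (0.105) or control replicate 7 (0.0596).

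The other markers of the list ranged from near 0 to above 10 CPM. Acan, the main proteoglycan of cartilage, had 1.86, 0.257 and 2.19 CPM in Grhl2_cKO samples, against 0.673, 0.365 and 0.194 CPM in control samples, and its 3.61-fold higher fitted level did not pass (log2 fold change 1.85 ± 0.69, edgeR adjusted p = 0.243). Matn1 stayed at or below 0.355 CPM in Grhl2_cKO and 0.149 CPM in control, and Ucma was at or under 3 counts in every library. Hapln1, a link protein of cartilage proteoglycan, had 11.5, 13.5 and 13.9 CPM in Grhl2_cKO samples, against 13.7, 9.56 and 10.4 CPM in control samples, and Epyc had 1.48 to 1.74 CPM in Grhl2_cKO and 0.548 to 1.48 CPM in control. Neither passed the test (edgeR adjusted p = 0.703 and 0.354). The collagen IX chains, which decorate collagen II fibrils in cartilage, did not pass either, as given with the other collagens. The part of cartilage cells in the change of collagens II and XI was not tested. In such bulk samples a different number of cells of a type and a different amount of RNA per cell cannot be told apart.

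The chains of the common interstitial collagens showed another pattern, in which single libraries stood out. Col1a1, a chain of collagen I, had 486, 214 and 253 CPM in Grhl2_cKO replicates 1, 5 and 10, against 369.7, 305 and 229 CPM in control replicates 1, 3 and 7. Col1a2, the partner chain, had 413, 197 and 241 CPM in Grhl2_cKO samples, against 326, 281 and 201 CPM in control samples. Col3a1, the chain of collagen III, had 640, 302 and 358 CPM in Grhl2_cKO samples, against 537, 442 and 321 CPM in control samples. In all of these the groups overlapped, and Grhl2_cKO replicate 1 was the highest of the 6 libraries.

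None passed the test, with log2 fold changes of 0.08 ± 0.27 for Col1a1, 0.07 ± 0.25 for Col1a2 and 0.00 ± 0.26 for Col3a1 (edgeR, adjusted p = 0.979, 0.978 and 1). Without Grhl2_cKO replicate 1 the values were -0.37, -0.30 and -0.39, and still not called (adjusted p 0.41, 0.591 and 0.406). Without control replicate 7 they were -0.09, -0.10 and -0.18. The same replicate was highest for the fibroblast proteoglycan genes Dcn, with 59.2 CPM where the rest had 13.2 to 25 CPM, and Lum, with 13.6 CPM where the rest had 1.35 to 5.53 CPM. It also held the heart muscle RNA noted above, and the part of either in these values was not tested. Dcn and Lum belong to a list of 15 mesenchyme markers, 12 of them tested and none called. Mfap5, Thy1 and Twist1 of that list also peaked in Grhl2_cKO replicate 1, at 2.53 CPM or less. The other markers of the list, such as Eln and Mfap4, peaked in other libraries. The list summed to 947, 710.4 and 868 CPM in Grhl2_cKO replicates 1, 5 and 10. In control replicates 1, 3 and 7 it summed to 996, 919 and 744 CPM.

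Collagen V, which regulates the diameter of collagen I fibrils, lay between these patterns. Col5a1 had 173, 135 and 156 CPM in Grhl2_cKO samples, against 136, 121 and 119 CPM in control samples. Only the lowest Grhl2_cKO sample reached into the control range, and the log2 fold change of 0.31 ± 0.09 missed the threshold (edgeR adjusted p = 0.117), which it passed without Grhl2_cKO replicate 5 (0.40, adjusted p = 0.0482) and in DESeq2 (adjusted p = 0.0255). Col5a2 had 101, 62.8 and 73.4 CPM in Grhl2_cKO samples, against 92.7, 76.8 and 58.1 CPM in control samples, and its groups overlapped (0.06 ± 0.19, edgeR adjusted p = 0.973).

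Of the remaining fibrillar chains, Col27a1 averaged 471 ± 35.8 CPM in Grhl2_cKO and 416 ± 66.1 CPM in control (edgeR adjusted p = 0.603). Col24a1 was rare, at 2.13 to 2.65 CPM in Grhl2_cKO and 1.1 to 1.83 CPM in control. Its groups did not overlap, but it missed the threshold (log2 fold change 0.77 ± 0.26, edgeR adjusted p = 0.178). Col5a3 reached 3.73 CPM in Grhl2_cKO replicate 1 and stayed at or below 1.1 CPM in the other libraries. Summed over all 11 fibrillar chains, CPM was 2964, 2244 and 2451 in Grhl2_cKO samples, against 2196, 2079.5 and 1879 CPM in control samples.

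**Figure D3:**
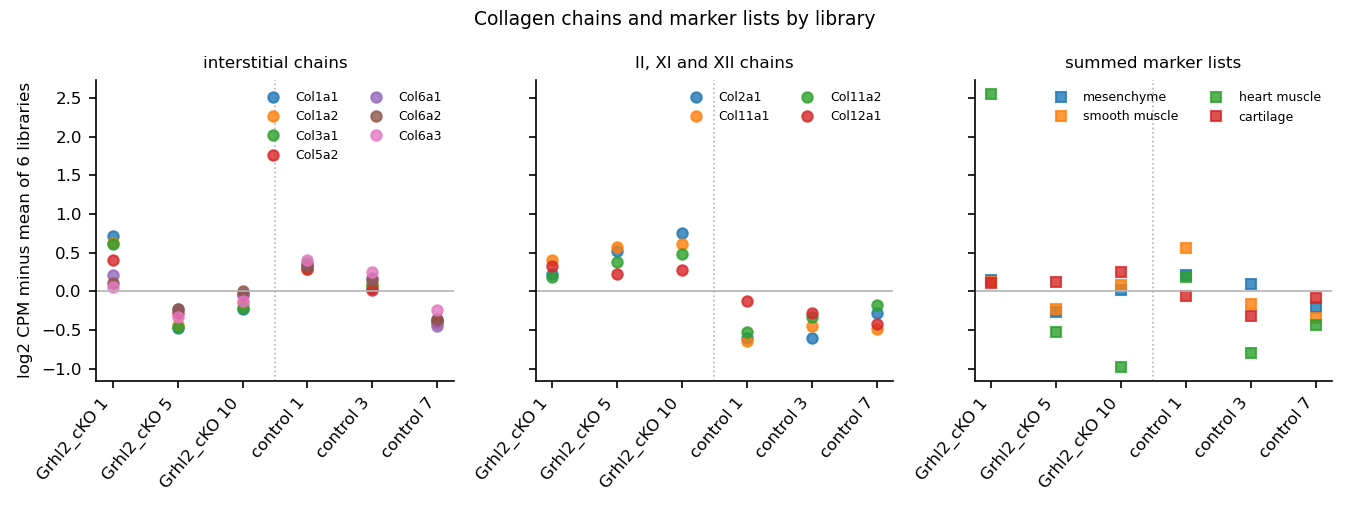
Log2 CPM of each gene or summed marker list minus its mean over the 6 libraries, by library, with Grhl2_cKO replicates left of control replicates. The chains of collagens II, XI and XII lie above their mean in each Grhl2_cKO library and below it in each control library, while the interstitial chains mix between genotypes and the heart muscle markers peak in Grhl2_cKO replicate 1.

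In the basement membrane network, the rarer chain Col4a3 rose and the abundant chains did not pass the test. Collagen IV occurs as the common network of Col4a1 and Col4a2 products and as specialised networks that use the products of Col4a3 to Col4a6. Col4a3 (Entrez 12828, chromosome 1, 82586921 to 82722059) had 77.7, 82.9 and 74.5 CPM in Grhl2_cKO samples, against 58.5, 49.6 and 58.3 CPM in control samples. The groups did not overlap, and it was the network chain that rose (log2 fold change 0.50 ± 0.08, 1.41-fold, edgeR adjusted p = 0.00715). Of its annotated exon bases, 5.65% are shared with C430014B12Rik on the opposite strand.

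Col4a4, its head-to-head neighbour, had 162, 183 and 176 CPM in Grhl2_cKO samples, against 156, 119 and 136 CPM in control samples. Col4a6 had 207, 213 and 231 CPM in Grhl2_cKO samples, against 187, 176 and 187 CPM in control samples. Both were higher in each Grhl2_cKO sample than in any control sample. Neither passed the threshold, with 0.34 ± 0.09 and adjusted p = 0.0818 for Col4a4 and 0.24 ± 0.06 and adjusted p = 0.061 for Col4a6 in edgeR. Col4a4 passed without control replicate 1 (0.45, adjusted p = 0.0108) and in DESeq2 (adjusted p = 0.0084). Col4a6 passed in DESeq2 (adjusted p = 0.0181) and with upper-quartile or total-count scaling (adjusted p = 0.0443 and 0.0455).

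Col4a5 had 454, 455 and 496 CPM in Grhl2_cKO samples, against 465, 404 and 432 CPM in control samples, and its groups overlapped (0.11 ± 0.07, edgeR adjusted p = 0.626). Col4a1 had 1946, 1921 and 2204 CPM in Grhl2_cKO samples, against 1927, 1862 and 1839.7 CPM in control samples. Col4a2 had 979, 991 and 1144 CPM in Grhl2_cKO samples, against 980.3, 948 and 914 CPM in control samples. For these chains the highest value came from Grhl2_cKO replicate 10 and the rest lay close together, and neither passed (0.11 ± 0.09 and 0.13 ± 0.08 on the log2 scale, edgeR adjusted p = 0.752 and 0.602).

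The other network chains were rare in these samples. Col8a1, of the short-chain collagen VIII, had 8.24, 11.5 and 12.6 CPM in Grhl2_cKO samples, against 8.82, 6.45 and 4.78 CPM in control samples. Its log2 fold change of 0.70 ± 0.23 missed the threshold (edgeR adjusted p = 0.161), and it passed without control replicate 1 (0.95, adjusted p = 0.0366), with sex as a covariate (0.04) and in DESeq2 (0.0452). Col8a2 had 1.99 to 7.64 CPM in Grhl2_cKO and 2.32 to 3.29 CPM in control. Col10a1, a collagen of hypertrophic cartilage, was at or below 0.902 CPM in Grhl2_cKO and between 0.913 and 1.2 CPM in control (-0.43 ± 0.31, edgeR adjusted p = 0.703).

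Among the other collagens, Col12a1 and Col6a5 rose. Col12a1, the chain of collagen XII, a fibril-associated collagen that bridges fibrils, had 124, 116 and 120.3 CPM in Grhl2_cKO samples, against 90.8, 81.7 and 74.3 CPM in control samples. The groups were well apart (log2 fold change 0.55 ± 0.07, 1.46-fold, edgeR adjusted p = 0.00347), and the call held with each library left out. Col6a5, a rare chain of the beaded-filament collagen VI, had 5.29, 5.78 and 6.81 CPM in Grhl2_cKO samples, against 3.96, 3.53 and 3.1 CPM in control samples. It rose by 0.76 ± 0.17 (edgeR adjusted p = 0.0397). That call was lost without Grhl2_cKO replicate 5 (0.11) or 10 (0.151) and without control replicate 3 (0.139) or 7 (0.142).

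None of the 3 main chains of collagen VI was called. Col6a1 had 81.9, 60.6 and 69.3 CPM in Grhl2_cKO samples, against 90.2, 79.8 and 51.8 CPM in control samples. Col6a2 had 129.6, 102 and 119.9 CPM in Grhl2_cKO samples, against 150.1, 133 and 93.8 CPM in control samples. Col6a3 had 116, 88.3 and 102 CPM in Grhl2_cKO samples, against 148, 132 and 93.8 CPM in control samples. In each of them the groups overlapped, and none was called (-0.07 ± 0.18, -0.10 ± 0.15 and -0.29 ± 0.15 on the log2 scale, edgeR adjusted p = 0.968, 0.913 and 0.501). Col6a6 reached 14 CPM in Grhl2_cKO replicate 1 and stayed at 2.9 to 6.73 CPM in the other libraries, and Col6a4 stayed at or below 2.62 CPM.

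The multiplexins were abundant and close between genotypes. Col18a1, whose C-terminal fragment is endostatin, had 2807, 3071 and 3348 CPM in Grhl2_cKO samples, against 2939, 3339 and 3299 CPM in control samples. Col15a1 had 598, 608 and 557 CPM in Grhl2_cKO samples, against 561, 558 and 620.2 CPM in control samples. In both the ranges overlapped (-0.05 ± 0.11 and 0.02 ± 0.07 on the log2 scale, edgeR adjusted p = 0.948 and 0.98).

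The collagen IX chains split by level and none was called. Col9a3 had 161, 169.8 and 191 CPM in Grhl2_cKO samples, against 137, 166 and 165 CPM in control samples (0.16 ± 0.09, edgeR adjusted p = 0.554). Col9a1 averaged 100.3 ± 4 CPM in Grhl2_cKO and 93.8 ± 18.6 CPM in control (edgeR adjusted p = 0.885). Col9a2 had 7.46, 6.55 and 8.41 CPM in Grhl2_cKO samples, against 8.15, 7.43 and 6.58 CPM in control samples (edgeR adjusted p = 0.99). The collagen IX trimer uses all 3 chains, and per kb Col9a3 stood 22.6 times above Col9a2 in Grhl2_cKO and 20.4 times above it in control. Of the annotated exon bases of Col9a3, 6.07% are shared with Tcfl5 on the opposite strand.

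The 3 tested transmembrane collagens had log2 fold changes below 0, and none was called. Col13a1 had 9.8, 8.67 and 8.17 CPM in Grhl2_cKO samples, against 12.6, 12.2 and 9.74 CPM in control samples, and missed the threshold (log2 fold change -0.37 ± 0.14, edgeR adjusted p = 0.241). Col23a1 was at -0.20 ± 0.18 (adjusted p = 0.785) and Col25a1 at -0.37 ± 0.20 (adjusted p = 0.529), and Col25a1 passed as lower only without control replicate 7 (-0.60, adjusted p = 0.0473). Col17a1, the hemidesmosome collagen, had 9, 5 and 9 counts in Grhl2_cKO libraries, against 19, 19 and 9 counts in control libraries, too few to be tested.

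The 8 remaining tested chains of this class, Col7a1, Col14a1, Col16a1, Col20a1, Col22a1, Col26a1, Col28a1 and Col6a4, had log2 fold changes from -0.11 for Col14a1 to 0.60 for Col22a1. Their edgeR adjusted p ran from 0.59 to 0.996. Col14a1, another fibril-associated collagen, was the most abundant of them per kb. It averaged 90.8 ± 13.5 CPM in Grhl2_cKO and 97.9 ± 18.5 CPM in control.

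**Figure D4:**
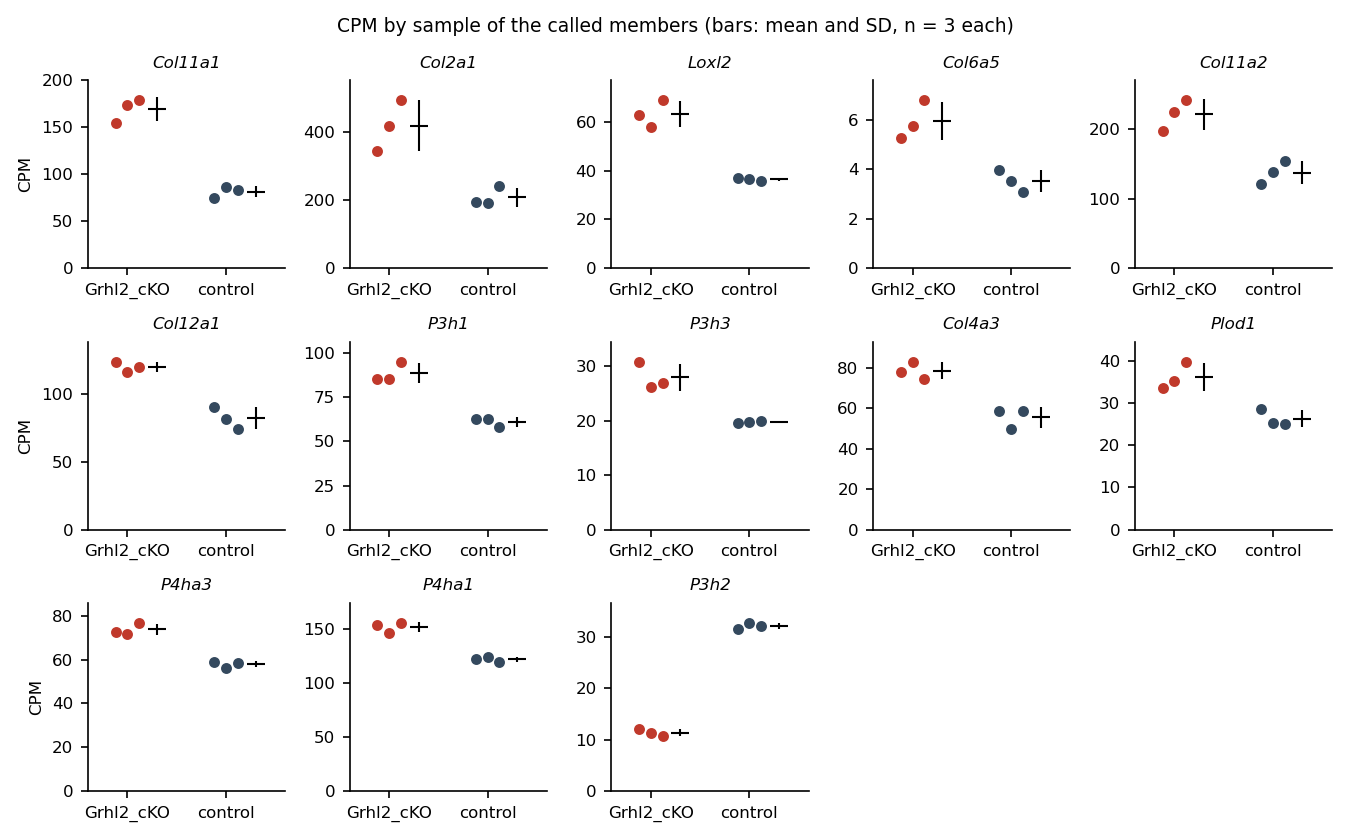
CPM in each sample for the 13 called members, Grhl2_cKO left of control, with mean and SD (n = 3 each). In each panel the groups do not overlap, and P3h2 is the member with Grhl2_cKO below control.

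The modifying enzymes held the strongest fall and 6 of the 12 rises. The prolyl 3-hydroxylases, which modify a few prolines per chain, went in opposite directions. P3h2 (Entrez 210530, chromosome 16, 25959284 to 26105813), whose product acts mainly on basement membrane collagen, had 12, 11.4 and 10.7 CPM in Grhl2_cKO replicates 1, 5 and 10, against 31.6, 32.7 and 32.2 CPM in control replicates 1, 3 and 7. The spread within each group was small beside the gap, with means of 11.3 ± 0.654 CPM in Grhl2_cKO and 32.2 ± 0.543 CPM in control (SD, n = 3 each). It fell to 35.2% of the control level (log2 fold change -1.51 ± 0.09, edgeR adjusted p = 2.01e-05). GENCODE places the antisense gene Gm4524 over 28.4% of the exon bases of P3h2. How the counting treated strand is unknown here, and reads of these genes may not be told apart.

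P3h1, which works on fibrillar collagens in a complex with the products of Crtap and Ppib, had 85.7, 85.3 and 95.3 CPM in Grhl2_cKO samples, against 62.7, 62.6 and 58 CPM in control samples. P3h3 had 30.8, 26.2 and 26.8 CPM in Grhl2_cKO samples, against 19.5, 19.8 and 19.9 CPM in control samples. Both rose without overlap between groups, P3h1 by 0.54 ± 0.07 (edgeR adjusted p = 0.00198) and P3h3 by 0.50 ± 0.09 (edgeR adjusted p = 0.0141). The call of P3h3 was lost without control replicate 3 (0.50, adjusted p = 0.0571). P3h4, a family member that has no hydroxylase activity and serves as a partner of lysyl hydroxylation, had 80.6, 72.7 and 78.6 CPM in Grhl2_cKO samples, against 68.3, 70.5 and 69.6 CPM in control samples (0.15 ± 0.06, edgeR adjusted p = 0.286).

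Per kb, P3h2 stood at 0.19 times P3h1 in Grhl2_cKO and 0.783 times in control. The log2 ratio was -2.27, -2.34 and -2.59 in Grhl2_cKO samples, against -0.42, -0.36 and -0.28 in control samples, without overlap. The ratio of P3h3 to P3h1 was 0.378 in Grhl2_cKO and 0.389 in control. These pairs were chosen after the values were seen and were not tested.

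Of the lysyl oxidases, Lox was the most abundant per kb and Loxl2 was the one that rose. Loxl2 (Entrez 94352, chromosome 14, 69608692 to 69695834), whose product cross-links collagen IV among other substrates, had 62.8, 57.9 and 68.9 CPM in Grhl2_cKO samples, against 37.1, 36.5 and 35.6 CPM in control samples. The groups were far apart, and it rose 1.74-fold (log2 fold change 0.80 ± 0.08, edgeR adjusted p = 0.000422). The antisense gene Gm27177 overlaps 5.57% of its exon bases. Lox had 72.8, 65.7 and 69 CPM in Grhl2_cKO samples, against 86.7, 75.9 and 57.7 CPM in control samples, which enclosed them (-0.09 ± 0.12, edgeR adjusted p = 0.908).

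Loxl1 averaged 23.2 ± 3.39 CPM in Grhl2_cKO and 19.5 ± 1.11 CPM in control (edgeR adjusted p = 0.406). Loxl3 averaged 37.6 ± 0.611 CPM in Grhl2_cKO and 33.2 ± 5.09 CPM in control (edgeR adjusted p = 0.587), with 11.6% of its exon bases shared with Htra2 on the opposite strand. Loxl4, not tested, had 7, 8 and 13 counts in Grhl2_cKO libraries, against 14, 6 and 6 in control libraries. Per kb, Loxl2 stood at 0.635 times Lox in Grhl2_cKO and 0.349 times in control, a pair chosen after the values were seen.

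The prolyl 4-hydroxylases stabilise the triple helix, and of their 3 catalytic subunits P4ha1 and P4ha3 rose. P4ha1 had 153, 146 and 155 CPM in Grhl2_cKO samples, against 122, 124 and 119 CPM in control samples. P4ha3 had 72.8, 71.9 and 76.7 CPM in Grhl2_cKO samples, against 58.9, 56.3 and 58.7 CPM in control samples. Both rose without overlap, P4ha1 by 0.32 ± 0.05 (edgeR adjusted p = 0.00964) and P4ha3 by 0.35 ± 0.06 (edgeR adjusted p = 0.0105). The call of P4ha3 was lost without control replicate 3 (0.33, adjusted p = 0.0558). P4ha2 averaged 37.8 ± 1.28 CPM in Grhl2_cKO and 32.5 ± 2.17 CPM in control, also without overlap, and did not pass (0.22 ± 0.08, edgeR adjusted p = 0.197). P4hb, the beta subunit of these enzymes, averaged 956 ± 71.9 CPM in Grhl2_cKO and 914 ± 25.3 CPM in control (edgeR adjusted p = 0.864).

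Of the lysyl hydroxylases, which prepare lysines for glycosylation and cross-linking, Plod1 rose. It had 33.6, 35.1 and 39.8 CPM in Grhl2_cKO samples, against 28.6, 25.2 and 25.1 CPM in control samples (log2 fold change 0.46 ± 0.09, edgeR adjusted p = 0.0232). The groups did not overlap, but the call was lost without Grhl2_cKO replicate 5 (0.0641) or 10 (0.0887) and without control replicate 3 (0.101) or 7 (0.0789). Plod2, the most abundant of them per kb, had 177, 188 and 187 CPM in Grhl2_cKO samples, against 168, 188 and 184 CPM in control samples (0.03 ± 0.06, edgeR adjusted p = 0.933). Plod3 averaged 116 ± 11.1 CPM in Grhl2_cKO and 106 ± 2.98 CPM in control (edgeR adjusted p = 0.551), and 11.7% of its exon bases are shared with Znhit1 on the opposite strand.

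Serpinh1, the collagen chaperone HSP47, had 1109.6, 1090.1 and 1301 CPM in Grhl2_cKO samples, against 1013, 993 and 959 CPM in control samples. Each Grhl2_cKO sample was above each control sample. Its log2 fold change of 0.24 ± 0.08 did not pass in edgeR (adjusted p = 0.202) and passed in DESeq2 (adjusted p = 0.0319).

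Promoter sequence is shown for 4 called members, because their windows before the annotated start hold no annotated exon: Col11a1, the chain with the largest rise, and the hydroxylase genes P4ha1, P4ha3 and Plod1. The bases are those before the first annotated base of the gene, from RefSeq on GRCm38.p6, written 5′ to 3′ on the gene's strand, with the GC box GGGCGG, the box CCAAT and the TATA motif TATAAA (either strand) in capitals. They are chr3:114030290-114030478 on the plus strand for Col11a1, chr10:59323046-59323196 on the plus strand for P4ha1, chr7:100285270-100285488 on the plus strand for P4ha3 and chr4:147936777-147937026 on the minus strand for Plod1.
Col11a1: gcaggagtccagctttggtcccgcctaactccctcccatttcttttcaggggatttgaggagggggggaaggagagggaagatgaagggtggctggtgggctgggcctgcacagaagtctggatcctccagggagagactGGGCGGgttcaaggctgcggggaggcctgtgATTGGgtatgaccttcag
P4ha1: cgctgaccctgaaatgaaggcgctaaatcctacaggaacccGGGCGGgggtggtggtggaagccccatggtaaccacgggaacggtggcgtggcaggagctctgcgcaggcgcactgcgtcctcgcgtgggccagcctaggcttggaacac
P4ha3: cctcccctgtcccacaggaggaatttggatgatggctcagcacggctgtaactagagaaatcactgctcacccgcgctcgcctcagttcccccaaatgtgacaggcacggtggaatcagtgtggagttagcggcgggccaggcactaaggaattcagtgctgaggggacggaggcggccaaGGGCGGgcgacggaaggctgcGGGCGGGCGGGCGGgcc
Plod1: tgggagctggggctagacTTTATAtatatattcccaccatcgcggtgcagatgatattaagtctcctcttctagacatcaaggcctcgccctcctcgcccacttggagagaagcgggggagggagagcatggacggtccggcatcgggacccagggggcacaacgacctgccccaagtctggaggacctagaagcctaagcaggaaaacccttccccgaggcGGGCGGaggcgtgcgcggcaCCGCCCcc

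RefSeq windows of 300 bases, 250 before and 50 after a start, were matched for 44 of the 60 members (48 windows), among them 8 of the 13 called members (9 windows). The letters AACCGGTT and the looser AACCNGTT, searched on both strands as forms of the grainyhead motif, were in none of the 48 member windows, where 0.146% and 2.09% of all 32851 windows held them. GGGCGG, the GC box, was in 31 of 48 member windows and in 8 of the 9 windows of called members, where 35.7% of all windows held it. Both windows of P3h1 are among those 8. CCAAT was in 16 of 48 member windows, 3 of the 9 windows of called members and 37.4% of all windows. TATAAA was in 7 of 48 member windows, 3 of the 9 windows of called members and 13.6% of all windows. Every AACCGGTT is also a match to AACCNGTT. A match describes the letters of a window only, and P3h2, Col2a1, Col4a3, Col12a1 and Loxl2 were not among the genes matched.

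Ratios between chains were taken within a library and so are free of the scaling. Among chains of 1 trimer, Col4a1 to Col4a2, Col1a1 to Col1a2 and Col6a1 to Col6a2 were close between genotypes. Col4a1 stood at 1.89 times Col4a2 per kb in Grhl2_cKO and 1.92 times in control, and Col1a1 at 1.2 times Col1a2 in Grhl2_cKO and 1.22 times in control. Each of these log2 ratios differed by -0.02 between genotypes, within the spread of the replicates. Col6a1 to Col6a2 was 0.563 in Grhl2_cKO and 0.548 in control.

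Other listed ratios differed more between genotypes, and some of these overlapped. Col4a3 to Col4a5 was 0.126 in Grhl2_cKO and 0.0966 in control, with log2 ratios of -2.95, -2.86 and -3.14 in Grhl2_cKO samples, against -3.39, -3.43 and -3.29 in control samples. Col11a1 to Col5a1, chains that can share a trimer, was 1.27 in Grhl2_cKO and 0.751 in control, with log2 ratios of 0.05, 0.57 and 0.41 in Grhl2_cKO samples, against -0.65, -0.28 and -0.31 in control samples. Neither pair overlapped between groups. Col4a3 to Col4a4 did overlap, with log2 ratios of -1.2, -1.28 and -1.38 in Grhl2_cKO samples, against -1.55, -1.41 and -1.36 in control samples. Col5a1 to Col5a2 overlapped as well (log2 ratio 0.43 to 0.76 in Grhl2_cKO, 0.21 to 0.69 in control). Col6a3 to Col6a1 was 0.532 in Grhl2_cKO and 0.623 in control, and those groups did not overlap either (log2 ratio -0.95 to -0.89 in Grhl2_cKO, -0.73 to -0.59 in control). Col4a3 to Col4a1, chains of different collagen IV networks, did not overlap (log2 ratio -5.27 to -4.91 in Grhl2_cKO, -5.61 to -5.36 in control). Nor did Col11a1 to Col5a2 (0.48 to 1.33 in Grhl2_cKO, -0.44 to 0.38 in control). Col2a1 to Col1a1 overlapped (-0.63 to 0.84 in Grhl2_cKO, -1.06 to -0.05 in control). Col2a1 to Col9a1 did not (1.44 to 1.87 in Grhl2_cKO, 0.56 to 1 in control). Both Col2a1 ratios set chains of different collagens side by side and were chosen after the values were seen. The ratios carry no test.

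**Figure D5:**
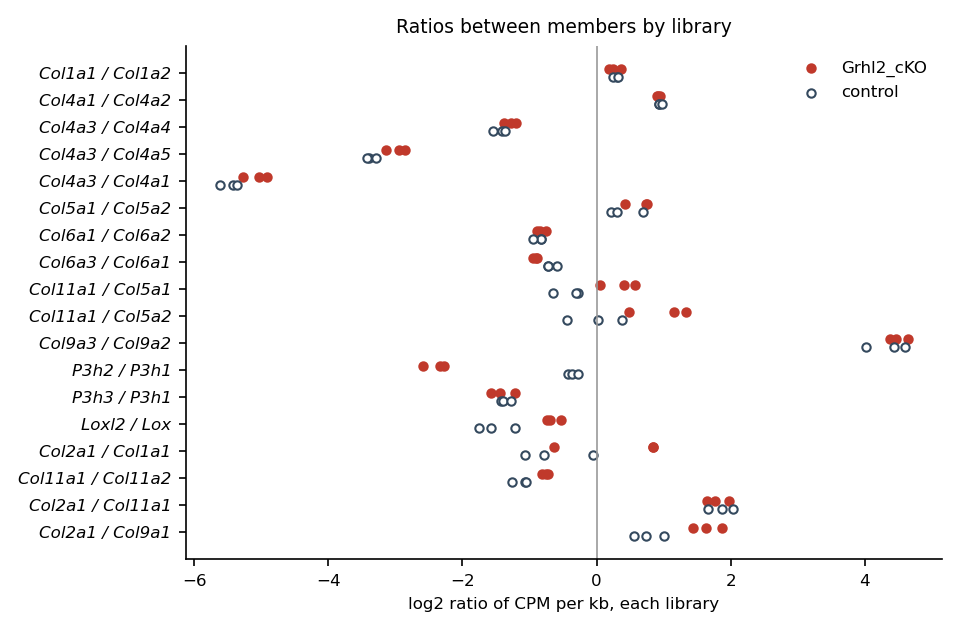
Log2 ratio of CPM per kb between pairs of members in each library, Grhl2_cKO as filled points above control as open points. Pairs from P3h2 over P3h1 downward were chosen after the values were seen. Col4a1 over Col4a2 is near 0.9 in all 6 libraries, while P3h2 over P3h1 separates at -2.59 to -2.27 in Grhl2_cKO and -0.42 to -0.28 in control.

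Genes that work with collagens but are not members were counted from a list of 40, covering folding, secretion, processing, receptors, breakdown and small proteoglycans. Of these 37 were tested, 4 rose, 1 fell and 32 did not pass, against 1.23% higher and 2.39% lower among all genes tested, and the median log2 fold change was 0.10. Fkbp14, a peptidyl-prolyl isomerase of collagen folding, averaged 39.7 ± 1.14 CPM in Grhl2_cKO and 30.7 ± 0.864 CPM in control (edgeR adjusted p = 0.0168). Itga11, an integrin subunit that binds collagen I, averaged 5.24 ± 1.02 CPM in Grhl2_cKO and 2.61 ± 0.467 CPM in control (edgeR adjusted p = 0.0279). The groups did not overlap in either gene.

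Timp2, a metalloproteinase inhibitor, rose by 0.34 ± 0.08 (edgeR adjusted p = 0.0406) and Pcolce, an enhancer of procollagen C-propeptide removal, by 0.42 ± 0.10 (edgeR adjusted p = 0.0462). Creb3l1, a transcription factor known for driving collagen I in bone, fell by 0.40 on the log2 scale (edgeR adjusted p = 0.0452). The calls of Timp2, Pcolce and Creb3l1 were close to the threshold, and all 5 calls depended on single libraries. Leaving out single libraries ended them for Fkbp14 (Grhl2_cKO 1 or 5, control 3; adjusted p 0.0502, 0.0775 and 0.0754), Itga11 (Grhl2_cKO 5 or 10, control 3 or 7; 0.072, 0.106, 0.125 and 0.0621) and Timp2 (Grhl2_cKO 1 or 10, control 3 or 7; 0.131, 0.135, 0.17 and 0.128). The same held for Pcolce (Grhl2_cKO 1 or 10, control 3 or 7; 0.147, 0.156, 0.18 and 0.123) and Creb3l1 (Grhl2_cKO 5 or 10, control 3 or 7; 0.173, 0.146, 0.181 and 0.119). With sex as a covariate Timp2, Pcolce and Creb3l1 also missed the threshold (0.066, 0.0651 and 0.0522). Creb3l1 missed it too with upper-quartile (0.0549) and total-count scaling (0.0512).

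Of the partners not called, Fmod, a fibril-binding proteoglycan, averaged 849.7 ± 95.1 CPM in Grhl2_cKO and 674 ± 18.2 CPM in control, without overlap (0.33 ± 0.08, edgeR adjusted p = 0.0619). Fkbp10, another folding isomerase, averaged 179 ± 17.9 CPM in Grhl2_cKO and 146 ± 3.26 CPM in control (0.29 ± 0.07, edgeR adjusted p = 0.0609). Fmod passed in 6 of 16 alternatives: upper-quartile and total-count scaling (adjusted p = 0.0495 and 0.0412), no filter (0.0387), DESeq2 (0.00108), limma-voom (0.0486) and robust quasi-likelihood (0.0407). Fkbp10 passed in 3 of 16, with upper-quartile and total-count scaling (0.0475 and 0.0429) and in DESeq2 (0.011). The partners of P3h1 in its complex, Crtap and Ppib, were at 0.08 ± 0.05 and 0.03 ± 0.08 on the log2 scale (edgeR adjusted p = 0.666 and 0.964).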

How the data were processed

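Whole-number counts per Entrez gene were deposited by the authors in 1 table with gene lengths, for 3 Grhl2_cKO and 3 control samples. Per the labels' protocols, stranded libraries of polyadenylated RNA were sequenced on an Illumina HiSeq. Per the submitters' processing notes, bcl2fastq 2.17.1.14, featureCounts, edgeR 3.16.5, limma 3.30.12 and mm10 were used. Not given in the sources used here are the aligner, the strand setting and the handling of multi-mapped reads.

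Symbols and coordinates came from RefSeq (GRCm38.p6), which matched 25275 of 27179 identifiers (93%). The test was edgeR 4.0.16 in R 4.3.3: TMM, filterByExpr (minimum count 10, minimum total 15), glmQLFit and glmQLFTest without covariates, adjusted over 14842 genes at 0.05, with the prior count at 0.125. SE was taken as the size of the fold change (log2) divided by the root of F. CPM uses TMM-scaled totals, and a count of 3 is 0.178 to 0.224 CPM. Class sums, medians and ratios carry no test. The procedure was tested on simulated data, and the outcome of that is not reported here. Exon overlaps came from GENCODE.

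Members, classes and lists were chosen with earlier results of these data known. Named in full were called members, the 3 smallest p and 3 highest levels per class, and chains of the listed ratios. Every pair of replicates differed beyond sampling noise (chi-square 7.72 to 12.9 per degree of freedom). The alternatives left out each library in turn, added sex to the model, changed the test (DESeq2 1.42.0, limma-voom in limma 3.58.1, and quasi-likelihood in its robust and legacy forms), changed the scaling (RLE, upper-quartile, total counts) or changed the filter (none, or 1 CPM in 3 libraries). Figures used Python 3.11.15 and matplotlib 3.10.9.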

Additional observations from a re-analysis of the deposited data

How the results depend on the processing

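Of the 13 called members, 9 kept their call under each of 16 alternatives, and 4 (Col6a5, P3h3, P4ha3 and Plod1) lost it only when single libraries were left out, as given beside them. No called member changed direction. The legacy quasi-likelihood fit was chosen after seeing the data. The number of members called was 13 to 14 under the other scalings, filters, tests and the sex covariate, 18 in DESeq2, and 9 (without control replicate 3) to 15 (without control replicate 1) with a library left out. Members called lower ranged from 1 to 2 with a library left out. Across all genes 537 were called, and 249 to 504 with a library left out: 257 and 249 on dropping Grhl2_cKO replicate 5 or 10, and 302 and 335 on dropping control replicate 3 or 7. Class medians ran from 0.21 to 0.40 for fibrillar, 0.17 to 0.29 for network, -0.12 to 0.07 for other collagens and 0.18 to 0.27 for enzymes. With sex as a covariate the log2 fold change was 0.00 for Col1a1 and -0.06 for Col3a1, and in limma-voom -0.05 for Col3a1, where the reported values were 0.08 and 0.00; the cause was not tested. With a library left out, 19 uncalled members crossed 0, within these ranges: Col1a1 -0.37 to 0.29, Col1a2 -0.30 to 0.28, Col3a1 -0.39 to 0.20, Col5a2 -0.16 to 0.24, Col5a3 -0.18 to 1.19, Col6a1 -0.27 to 0.11, Col6a2 -0.27 to 0.06, Col6a4 -0.24 to 0.69, Col6a6 -0.34 to 1.06, Col9a1 -0.05 to 0.22, Col9a2 -0.07 to 0.11, Col15a1 -0.01 to 0.07, Col16a1 -0.12 to 0.18, Col18a1 -0.12 to 0.01, Col20a1 -0.18 to 0.09, Col26a1 -0.47 to 0.19, Col28a1 -0.28 to 0.05, Lox -0.23 to 0.06 and Plod2 -0.01 to 0.07. No paired analysis was made, because the labels name no pairs between genotypes. The genotypes share only replicate number 1, and the labels do not say that a shared number marks a pair. Depth limits the rare chains: Loxl4, Col17a1 and Col19a1 could not be tested.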
